A study of Rattus norvegicus with 57 samples.

Results

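The proteasome is the protease complex that degrades ubiquitin-tagged proteins, and its subunit genes were followed here in rat liver during methapyrilene dosing. The members were all genes whose annotation symbol was Psma, Psmb, Psmc or Psmd followed by a number and nothing else, which gave 36 of the 14218 genes with a single symbol on the array. They comprised 13 constitutive core subunits (7 alpha and 6 beta), the 3 immunoproteasome subunits Psmb8, Psmb9 and Psmb10, and 20 regulatory particle genes (6 ATPases and 14 non-ATPases). Psmc3ip, whose symbol carries further letters and which encodes no subunit, was left out. Psma8 and Psmb11 had no probe set with a single symbol. The probe sets for Psma3l with Psma3 and for Psmb6l1 with Psmb6 each carried 2 symbols and were not used, so Psmb6 was not analysed here.

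Protein substrates are threaded through a barrel of stacked rings, the outer ones built of alpha subunits that gate the entrance and the inner ones of beta subunits that cut. Psmb5, Psmb6 and Psmb7 carry the constitutive active sites, and Psmb8, Psmb9 and Psmb10 take the places of Psmb5, Psmb6 and Psmb7 in the interferon-inducible immunoproteasome, which shapes peptides for antigen presentation. The regulatory particle caps the barrel. Its base holds some Psmd proteins and a ring of Psmc ATPases that unfold the substrate. Its lid is built of other Psmd proteins and removes ubiquitin. The transcription factor Nfe2l1 is known to raise subunit genes together when proteasome activity is short.

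Male Han Wistar [Crl:WI(Han)] rats aged 8 to 10 weeks were given methapyrilene, an antihistamine that is toxic to rat liver, by mouth every day at 30 or 80 mg/kg body weight, and control rats received the carboxymethylcellulose vehicle. Livers were taken on days 4, 8 and 15 of the study and on day 24, the last a recovery group in which 10 days without treatment followed 14 daily doses. RNA of 57 livers was hybridised to 57 Affymetrix expression arrays, with 5 arrays in each of the 12 dose-by-day groups except for 4 at 80 mg/kg on day 4, 4 controls on day 24 and 4 at 30 mg/kg on day 24. The labels state 6 rats per group and describe each array as a biological replicate. Liver homogenate holds hepatocytes with all other liver cells, so fewer cells of a type and less RNA per cell cannot be told apart in any value below. The hepatocyte transcript for albumin (Alb) was bright in every group (mean signals of 4548 to 7068), and correlations between log2 signals of arrays of the same group ran from 0.92 to 0.95. The median signal of an array ran from 15.0 to 21.1, with the highest among the day 24 arrays at 80 mg/kg, although all arrays had been scaled to a common trimmed mean. For this reason the counts of subunits at 80 mg/kg against control are also given with 2 other scalings, quantile normalization and a shift of all arrays to a common median. Other counts use the deposited scaling unless another is named.

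Promoter sequences are shown for 5 of the subunits described below. They are Psmb5 as a constitutive catalytic subunit, Psmb8 and Psmb10 as inducible ones, Psmd13 as one that rose and Psmd1 as one that fell. Each is the 250 bases before the RefSeq gene start on the GRCr8 assembly, printed 5′ to 3′ on the gene's own strand, and capitals mark matches to any of 5 motifs searched on both strands: TGACNNNGC (the core of the antioxidant response element, bound by Nfe2l1 and Nfe2l2), GAAA followed by any 2 bases and GAAA (the interferon-stimulated response element type), TTCNNNGAA (the gamma-activated site type), CCAAT and ACTTCCG (an ETS type). Psmb5 lies at chr15:32047380-32047629 on the minus strand, Psmb8 at chr20:4657032-4657281 on the minus strand, Psmb10 at chr19:50743293-50743542 on the minus strand, Psmd13 at chr1:205393998-205394247 on the plus strand and Psmd1 at chr9:94157721-94157970 on the plus strand.
Psmb5: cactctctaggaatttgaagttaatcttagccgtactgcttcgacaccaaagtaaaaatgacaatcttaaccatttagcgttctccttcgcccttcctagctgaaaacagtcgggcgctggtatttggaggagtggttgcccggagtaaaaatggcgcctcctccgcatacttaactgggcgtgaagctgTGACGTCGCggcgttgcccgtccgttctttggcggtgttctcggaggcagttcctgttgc
Psmb8: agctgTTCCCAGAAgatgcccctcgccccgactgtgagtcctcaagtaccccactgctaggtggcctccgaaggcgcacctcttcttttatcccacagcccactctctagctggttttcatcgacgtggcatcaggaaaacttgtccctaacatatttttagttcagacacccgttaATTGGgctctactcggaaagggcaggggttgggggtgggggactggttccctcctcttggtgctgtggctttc
Psmb10: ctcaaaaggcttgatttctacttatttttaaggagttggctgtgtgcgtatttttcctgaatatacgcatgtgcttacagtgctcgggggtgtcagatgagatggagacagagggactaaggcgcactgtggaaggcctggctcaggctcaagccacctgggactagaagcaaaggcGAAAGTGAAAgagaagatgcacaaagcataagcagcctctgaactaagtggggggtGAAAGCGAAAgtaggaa
Psmd13: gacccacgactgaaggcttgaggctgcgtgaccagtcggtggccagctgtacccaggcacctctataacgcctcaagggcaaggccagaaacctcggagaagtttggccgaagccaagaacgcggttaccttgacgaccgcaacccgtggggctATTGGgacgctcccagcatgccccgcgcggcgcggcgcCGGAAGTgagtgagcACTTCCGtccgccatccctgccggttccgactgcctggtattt
Psmd1: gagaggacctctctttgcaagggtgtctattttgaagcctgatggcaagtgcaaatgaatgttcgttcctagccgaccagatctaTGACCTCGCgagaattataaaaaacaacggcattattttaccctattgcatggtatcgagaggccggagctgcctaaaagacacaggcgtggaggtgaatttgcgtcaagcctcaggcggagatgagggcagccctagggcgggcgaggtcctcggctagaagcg
Psmb10 held 2 copies of the interferon-stimulated type and Psmb8 1 of the gamma-activated type, whereas Psmb5 and Psmd1 each held 1 antioxidant response core. Neither interferon type was limited to immunoproteasome genes. The interferon-stimulated type was also in the windows of Psma4, Psmb3 and Psmd7, and the gamma-activated type in those of Psmc6, Psmd3 and Psmd7. Windows of this length were available for 32 of the 36 subunits (none for Psma7, Psmd6, Psmd12 and Psmd14) and for 33469 gene starts in all. TGACNNNGC was in 5 of the 32 windows (Psma3, Psmb2, Psmb5, Psmd1 and Psmd9; 15.6%) against 10.1% of all windows, the interferon-stimulated type in 4 (12.5% against 3.41%), TTCNNNGAA in 4 (12.5% against 7.67%), CCAAT in 17 (53.1% against 34.0%) and ACTTCCG in 10 (31.2% against 5.22%). ACTTCCG was in 6 of 12 core windows, 4 of 17 regulatory windows and 0 of 3 immunoproteasome windows. The windows of Psmb9, the immunoproteasome gene called against control below, and of Psmd11 held none of the 5 motifs. A match describes the letters and is not a measured binding site.

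At 80 mg/kg the subunits changed in both directions and by small amounts. By the brightest probe set of each gene, no subunit changed by 2-fold on any of the 4 days. Of all 10726 genes tested, 5.19%, 9.61%, 15.2% and 2.36% did on days 4, 8, 15 and 24. All genes were not matched to the subunits for signal level or for spread within groups. With limma on log2 signals and Benjamini-Hochberg adjusted p under 0.05 as the call, 7 of 36 subunits rose on day 4 and 1 fell (22.2% called, against 27.5% of all genes tested; 18.3% up and 9.19% down). On day 8, 10 rose and 5 fell (41.7% called, against 50.8% of all genes; 34.2% up and 16.6% down). The day 15 livers had 8 subunits up and 5 down (36.1% called, against 59.2%; 38.8% up and 20.5% down). After recovery, 1 was up and 2 were down (8.33% called, against 10.2%; 7.15% up and 3.08% down). These shares hold for the deposited scaling.

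**Figure D1:**
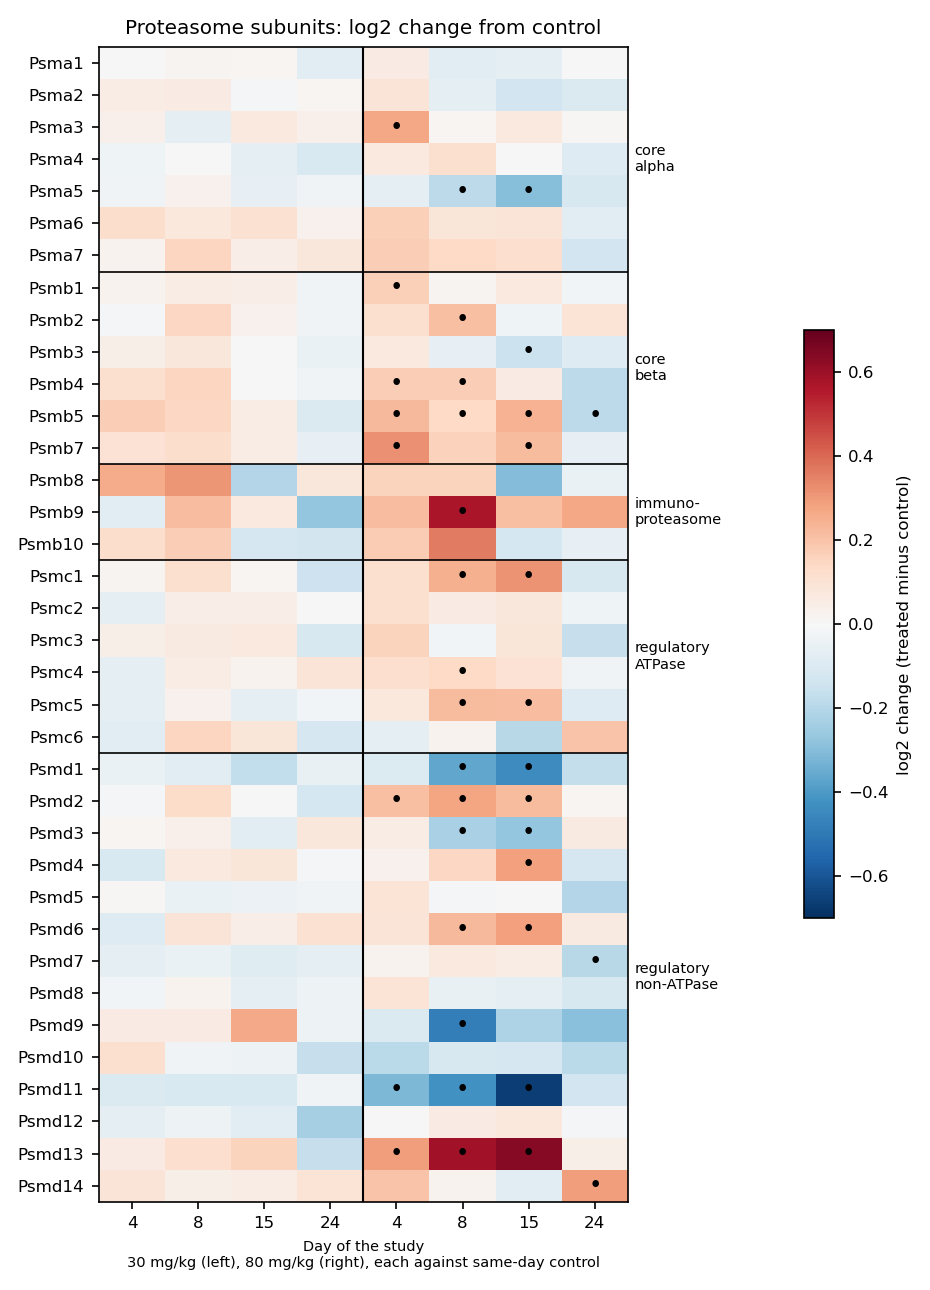
Heatmap of the log2 change against the control group of the same day for the 36 subunits (rows, ordered by role) at 30 and 80 mg/kg on days 4, 8, 15 and 24 (columns); colour gives the log2 change and a dot marks a limma adjusted p under 0.05. Dots occur only in the 80 mg/kg columns, with Psmd13 the deepest rise and Psmd11 the deepest fall on day 15.

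The median log2 change of the 36 subunits was 0.10, 0.06, 0.06 and -0.08 on days 4, 8, 15 and 24, beside 0.08, 0.15, 0.16 and 0.04 for all genes tested. The median size of the change regardless of sign was 0.11, 0.14, 0.13 and 0.10 in the subunits and 0.22, 0.32, 0.41 and 0.17 over all genes. The balance of rises and falls depended on the scaling. Quantile normalization gave 13 rises with 1 fall (day 4), 16 with 5 (day 8), 16 with 6 (day 15) and 1 with 0 (day 24). The share of subunits called was then 38.9%, 58.3%, 61.1% and 2.78%, beside 26.4%, 45.6%, 55.9% and 7.21% of all genes, and all genes were called up in 15.7%, 25.3%, 31.0% and 4.3%. A common median gave 0 rises with 1 fall, 1 with 14, 1 with 10 and 0 with 26 on the same days. The share of subunits called was then 2.78%, 41.7%, 30.6% and 72.2%, beside 23.7%, 44.5%, 54.9% and 33.8% of all genes, and all genes were called down in 14.9%, 28.0%, 26.0% and 31.3%. The subunits' share was thus below that of all genes on all 4 days as deposited, above it on days 4, 8 and 15 after quantile normalization, and above it on day 24 with a common median. Under that common median the median log2 change of all genes was -0.05, -0.07, 0.03 and -0.21 on days 4, 8, 15 and 24, and the last of these lies well below the 0.04 of the deposited scaling. Calls with the same sign under all 3 scalings were limited to Psmd11 (down) on day 4, Psmd13 (up) with Psmd1, Psmd3, Psmd9 and Psmd11 (down) on day 8, and Psmd13 (up) with Psma5, Psmd1, Psmd3 and Psmd11 (down) on day 15.

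**Figure D2:**
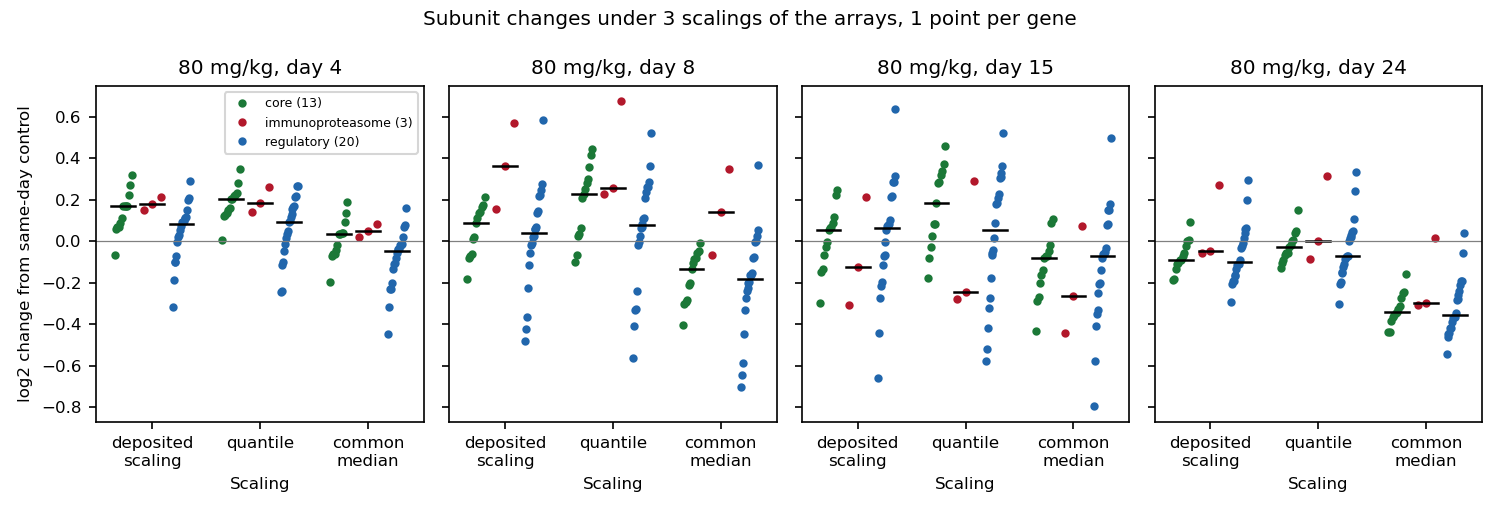
Log2 change at 80 mg/kg against control of each core (13), immunoproteasome (3) and regulatory (20) subunit on days 4, 8, 15 and 24 under the deposited scaling, quantile normalization and a common array median; each point is 1 gene and the black line is the group median. The points of a group shift together between scalings: on day 8 the core median was 0.09 as deposited, 0.23 after quantile normalization and -0.13 with a common median.

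In the constitutive core, 5 of 13 subunits rose on day 4 and 0 fell, and 3 rose and 1 fell on day 8. On day 15, 2 rose and 2 fell, and on day 24, 0 rose and 1 fell. Rises were thus 38.5%, 23.1%, 15.4% and 0% of the core, beside 18.3%, 34.2%, 38.8% and 7.15% of all genes. Falls were 0%, 7.69%, 15.4% and 7.69%, beside 9.19%, 16.6%, 20.5% and 3.08%. The median log2 change of the core was 0.17, 0.09, 0.06 and -0.09 on the 4 days. The beta ring, which holds the active sites, had 4 of the 5 rises on day 4: Psmb7 (trypsin-like site) rose by 0.32 ± 0.08 (SE), Psmb5 (chymotrypsin-like site) by 0.22 ± 0.05, and Psmb4 and Psmb1, which have no active site, by 0.17 each. Psma3 of the alpha ring rose by 0.27 ± 0.09 (adjusted p = 0.022), a call that ended without control replicate 1 (adjusted p = 0.061), 80 mg/kg replicate 2 (0.087) or 80 mg/kg replicate 5 (0.052) of day 4. Under a common median none of these day 4 rises was called.

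Psmb5 was the core subunit called on all 4 days. Its signals on day 15 were 1123, 1114, 1102, 1156 and 1228 in the control livers and 1333, 1337, 1333, 1399 and 1380 at 80 mg/kg. Every 80 mg/kg array lay above every control array. The log2 rise was 0.22 ± 0.05 on day 4 (adjusted p = 0.0013), 0.14 ± 0.05 on day 8 (0.022) and 0.25 ± 0.05 on day 15 (5.0e-05), an 18.6% higher signal on the last. On day 24 the order was turned, with 1148, 1217, 1072 and 1131 in controls against 1045, 960, 993, 966 and 1063 at 80 mg/kg. All 5 recovery arrays at 80 mg/kg were then below the controls, and the log2 change was -0.18 ± 0.05 (adjusted p = 0.023). The day 24 call was lost without control replicate 2 (adjusted p = 0.053), control replicate 3 (0.11), 80 mg/kg replicate 2 (0.066) or 80 mg/kg replicate 4 (0.061). With a common median none of the Psmb5 rises on days 4, 8 and 15 was called. After quantile normalization its day 24 fall was not called.

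Psmb7, the other measured constitutive active site, had day 4 signals of 486, 495, 580, 607 and 590 in controls and 688, 631, 713 and 713 at 80 mg/kg. The day 4 groups did not overlap. On day 15 control signals ran from 487 to 693 and those at 80 mg/kg from 633 to 749, with overlap, and the log2 rise was 0.22 ± 0.08 (adjusted p = 0.00999). Psmb2 and Psmb4, which form the beta ring without an active site, rose on day 8 by 0.21 ± 0.06 and 0.17 ± 0.06. With a common median none of these rises of Psmb7, Psmb2 and Psmb4 was called.

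Psma5, an alpha ring subunit, moved the other way. Its control signals on day 15 were 876, 963, 1005, 985 and 1031, and those at 80 mg/kg were 830, 730, 753, 852 and 790. All treated arrays were below all controls. The log2 change was -0.18 ± 0.06 on day 8 (adjusted p = 0.015) and -0.30 ± 0.06 on day 15 (6.7e-05). The day 8 call ended without 80 mg/kg replicate 5 (adjusted p = 0.053). Psmb3, a beta ring subunit without an active site, fell by 0.15 ± 0.05 on day 15 as deposited (adjusted p = 0.0068) but had a log2 change of 0.03 after quantile normalization. Psma1, Psma2, Psma4, Psma6 and Psma7, the other members of the alpha ring, were not called against control on any day, with log2 differences between -0.13 and 0.17.

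**Figure D3:**
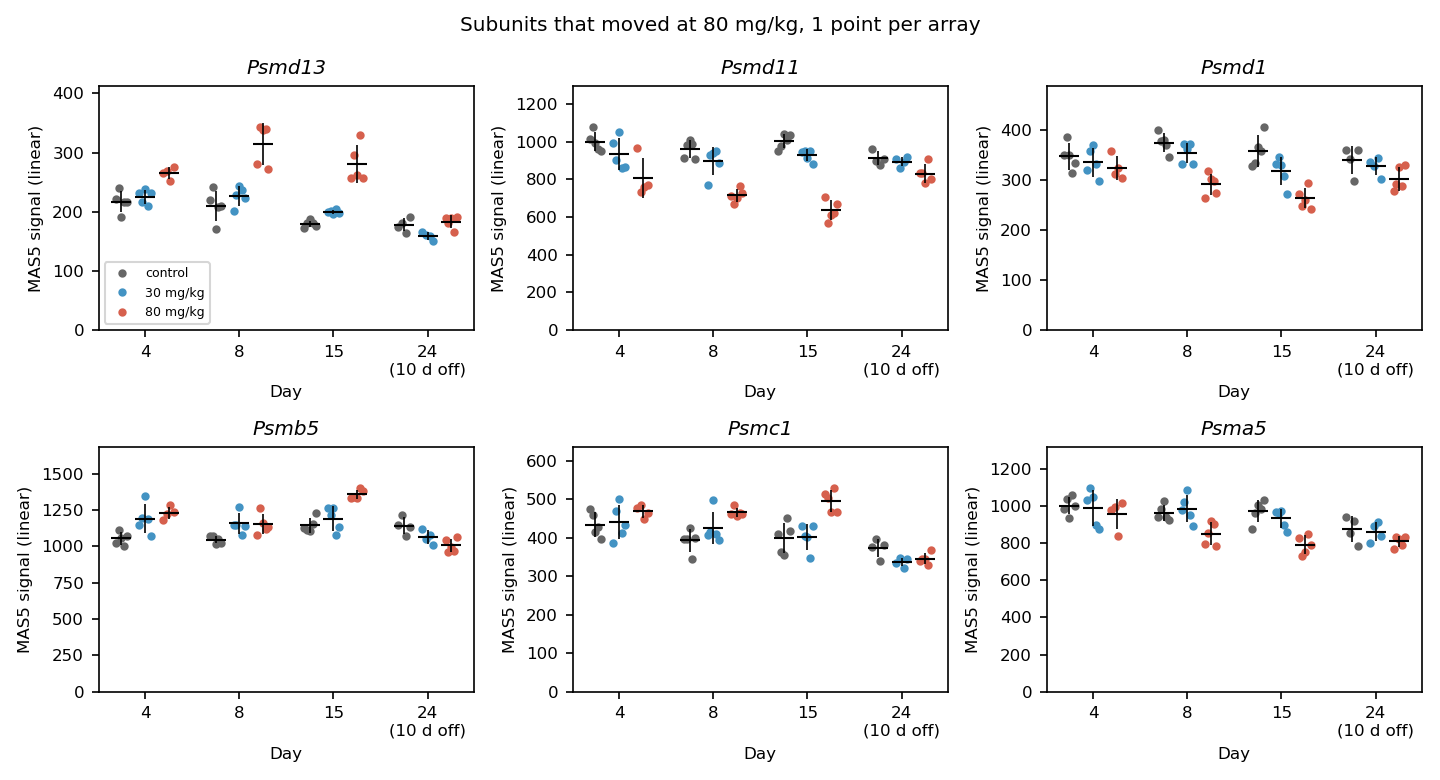
Deposited signal (linear MAS5 units, axes from 0) of Psmd13, Psmd11, Psmd1, Psmb5, Psmc1 and Psma5 on each of the 57 arrays, by dose and day; each point is 1 liver and bars give the group mean ± SD. Psmd13 lies higher and Psmd11 lower at 80 mg/kg on days 8 and 15, and on day 24 the Psmd13 groups overlap.

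The immunoproteasome subunits showed 1 call in the 8 comparisons of a dose with control. Psmb9 rose on day 8 at 80 mg/kg. Its signals were 625, 567, 525, 480 and 719 in controls and 837, 811, 731, 1118 and 840 at 80 mg/kg. Each treated liver was above the highest control, and replicate 4 stood above the other treated livers. The log2 rise was 0.57 ± 0.15 (adjusted p = 0.0017), or 48.6%, and it stayed called with each array left out in turn, with log2 rises from 0.48 to 0.65. After quantile normalization it was 0.68 and called, and with a common median it was 0.35 and not called.

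Psmb10, the inducible counterpart of Psmb7, had day 8 signals of 126, 118, 202, 135 and 167 in controls and 180, 128, 153, 376 and 179 at 80 mg/kg. The groups overlapped apart from replicate 4 at 376. The log2 difference was 0.36 ± 0.17 (adjusted p = 0.070). Psmb8, the inducible counterpart of Psmb5, had 562, 499, 569, 618 and 812 in controls and 638, 543, 589, 941 and 714 at 80 mg/kg on that day. Again the groups overlapped and replicate 4 was the highest of its group, as it was for all 3 genes. Its log2 difference was 0.15 ± 0.16 (adjusted p = 0.45; 95% interval -0.17 to 0.48).

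On day 15 control signals of Psmb8 were 665, 802, 619, 939 and 857, against 602, 591, 563, 677 and 680 at 80 mg/kg. Among the treated arrays 3 lay below the lowest control and 2 within the control range. The log2 difference was -0.31 ± 0.16 (adjusted p = 0.11), beside 0.21 ± 0.15 for Psmb9 (0.24) and -0.13 ± 0.17 for Psmb10 (0.55). On day 24 the differences were -0.05 for Psmb8, 0.27 for Psmb9 and -0.06 for Psmb10, with no call. On day 4 they were 0.15, 0.22 and 0.18, again with no call.

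**Figure D4:**
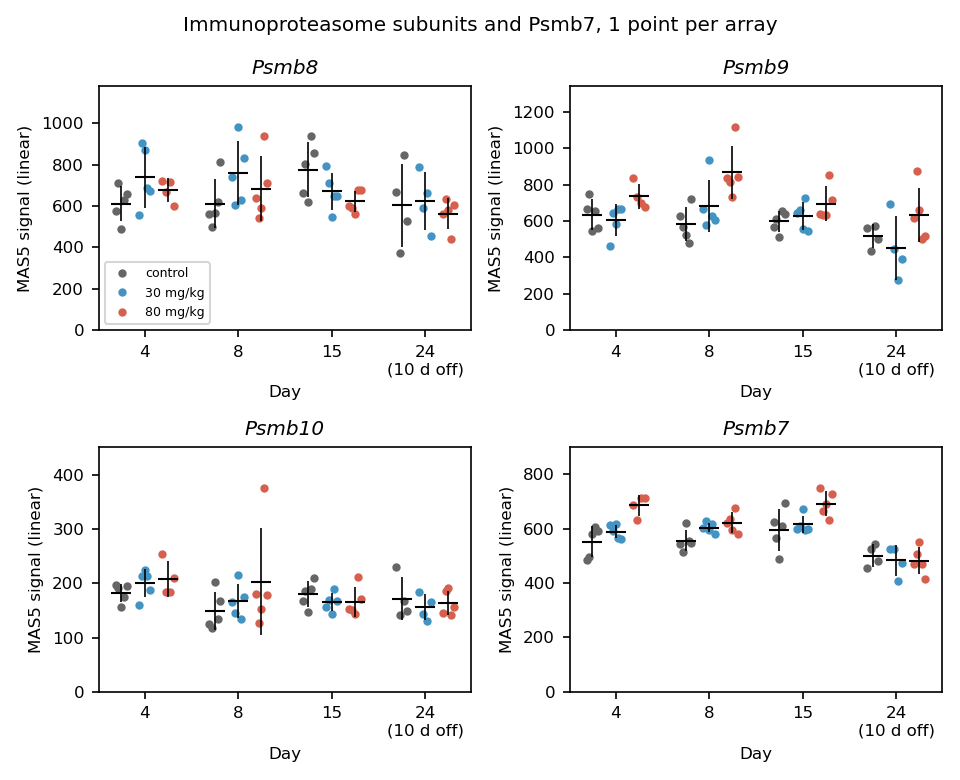
Deposited signal (linear MAS5 units, axes from 0) of Psmb8, Psmb9 and Psmb10 and of the constitutive Psmb7 on each array, by dose and day; points are livers and bars the group mean ± SD. Psmb9 at 80 mg/kg on day 8 spans 731 to 1118, above the control range of 480 to 719, and replicate 4 of that group reaches 376 for Psmb10.

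The exchange of a constitutive for an inducible active site was read from the log2 difference of the 2 subunits on each array, which compares changes and not levels. Psmb8 minus Psmb5 was -0.58 ± 0.22 (SD, n = 5) in day 15 controls and -1.13 ± 0.09 (n = 5) at 80 mg/kg, a shift of -0.55 towards Psmb5 (two-sided exact permutation test, p = 0.0079, the smallest that 5 against 5 allows; 0.13 after Benjamini-Hochberg adjustment over 16 tests). For Psmb10 minus Psmb7 the shift on day 15 was -0.35 (exact permutation p = 0.048, adjusted 0.38). None of the 16 comparisons passed the adjusted threshold. Over 16 tests, 1 comparison alone at the smallest possible p adjusts to 0.13 and could not pass. The absence of a call therefore does not decide whether the balance of these subunits moved. On day 8 the shifts at 80 mg/kg were 0.02 and 0.20. The pair of Psmb9 with Psmb6 was not computed because Psmb6 was not measured by a probe set of its own.

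Livers of the same group differed more in the immunoproteasome genes than in other subunits. The residual SD of log2 signals within groups was 0.25 for Psmb9, 0.27 for Psmb8 and 0.28 for Psmb10, while it ran from 0.07 to 0.15 in the core and from 0.07 to 0.17 in the regulatory genes. The median over the 3394 genes in the subunits' range of mean signal was 0.14. Deviations from the group mean rose and fell together across the 57 livers. Pearson's r was 0.61 for Psmb8 with Psmb9 (Spearman's rho 0.61, permutation p = 2.0e-05, adjusted 0.00035 over 87 relations), 0.63 for Psmb8 with Psmb10 (rho 0.66, permutation p = 1.0e-05, adjusted 0.00029) and 0.62 for Psmb9 with Psmb10 (rho 0.64, permutation p = 1.0e-05, adjusted 0.00029); 1.0e-05 is the smallest p these permutations can give. Without the 2 livers farthest from the median the coefficients were 0.61, 0.67 and 0.63. Among the other 33 subunits the 528 pairwise coefficients had a median of 0.22 and ran from -0.52 to 0.70. The highest of them was thus above those of the 3 immunoproteasome pairs. Coefficients of the 3 immunoproteasome genes with the other 33 had a median of 0.08 and ran from -0.28 to 0.43.

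Psme1 and Psme2, which together form the interferon-inducible proteasome activator, followed the same deviations, with coefficients of 0.55, 0.50 and 0.53 for Psme1 and 0.52, 0.57 and 0.58 for Psme2 against Psmb8, Psmb9 and Psmb10 (adjusted permutation p of 0.0028 or less; rho from 0.47 to 0.59). The interferon-gamma target Cxcl9 gave 0.67, 0.52 and 0.49 (adjusted permutation p of 0.0015 or less; rho 0.64, 0.57 and 0.55). Without the 2 farthest livers all 9 of these coefficients stayed between 0.50 and 0.63. Cxcl9 was at the upper end of the 20 interferon and antigen presentation genes, whose coefficients had medians of 0.22, 0.23 and 0.20 with Psmb8, Psmb9 and Psmb10. Of the 20, 7, 7 and 2 passed the adjusted threshold with a positive coefficient and 0, 0 and 1 with a negative one. Gbp2 gave 0.37, 0.58 and 0.43 (adjusted permutation p of 0.031 or less), and its coefficient with Psmb9 was above that of Cxcl9. Igtp gave 0.49 and 0.46 with Psmb8 and Psmb9 (adjusted permutation p of 0.0049 or less) and 0.29 with Psmb10 (0.13). Irf8, Cd74 and Erap1 also passed with Psmb8 and Psmb9. Lower coefficients were 0.21, 0.29 and 0.15 for Cxcl10 (adjusted permutation p of 0.076 or more) and 0.01, -0.07 and -0.01 for Cxcl11 (0.67 or more). The transcription factor Irf1 gave 0.09, 0.13 and 0.23 (0.24 or more) and the class II regulator Ciita 0.12, 0.32 and 0.24 (0.065 or more). Tap1, the peptide transporter gene whose start lies 457 bases from that of Psmb9 on the opposite strand, gave 0.18, -0.10 and -0.08 (adjusted permutation p from 0.51 to 0.68). The summed signal of 10 macrophage markers gave 0.16, 0.18 and 0.17 (adjusted permutation p from 0.39 to 0.52), and that of 7 T and NK cell markers 0.31, 0.39 and 0.27 (0.070 to 0.083). The summed B cell markers gave -0.39 with Psmb8 (adjusted permutation p = 0.044), -0.13 with Psmb9 (0.46) and -0.24 with Psmb10 (0.17).

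**Figure D5:**
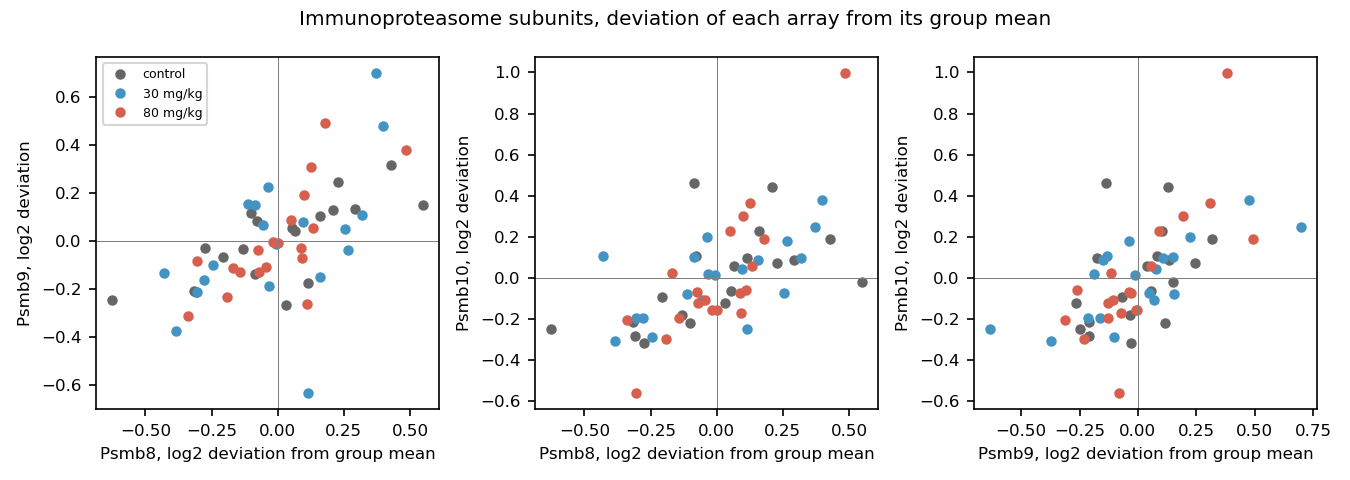
Pairwise log2 deviations from the group mean of Psmb8, Psmb9 and Psmb10 on 57 arrays; each point is 1 liver and both axes are log2 units. The clouds slope upwards in all 3 panels, with Pearson's r of 0.61 (Psmb8 with Psmb9), 0.63 (Psmb8 with Psmb10) and 0.62 (Psmb9 with Psmb10).

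Cell type markers moved at the same times. Of all genes tested, 18.3%, 34.2%, 38.8% and 7.15% were called up on days 4, 8, 15 and 24 at 80 mg/kg. The shares called down were 9.19%, 16.6%, 20.5% and 3.08%. On day 8 at 80 mg/kg, 9 of 10 macrophage and monocyte markers rose and 0 fell, and their summed signal ran from 4190 to 4921 against 2517 to 3689 in controls. Of 7 T and NK cell markers Cd3g and Prf1 rose, with sums of 219 to 276 against 186 to 210, while Cd3e, Cd3d, Cd2, Cd8a, Gzmb and Klrd1 stayed below the signal filter. The 2 measured B cell markers, Ms4a1 and Jchain, were not called on any day. Of 9 hepatocyte markers 6 fell on day 8, and their sum was 41154 to 47854 against 48178 to 61798. On day 15 there were 6 macrophage rises of 10, 5 hepatocyte falls of 9 and 1 hepatocyte rise (Tat), and on day 24 there were 8 macrophage rises and no hepatocyte call. Biliary markers rose in 4, 4, 5 and 2 of 5 on days 4, 8, 15 and 24, with a day 15 sum of 924 to 1304 against 211 to 274.5. Endothelial markers had 1 rise and 1 fall of 6 on day 8, and stellate and matrix markers 1 rise of 8. On day 24 the endothelial sum was 1341 to 1827 at 80 mg/kg against 1185 to 1327 in controls. That of the T and NK cell markers was 178 to 270 against 132 to 169. The B cell sums and the stellate and matrix sums overlapped with controls on that day. The part of these cell types in the subunits' changes was not tested.

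Among the 20 measured interferon and antigen presentation genes, 12 rose on day 8 at 80 mg/kg and 1 fell, with a median log2 change of 0.45. Of all genes tested, 34.2% were called up and 16.6% down on that day. For the 20 genes quantile normalization gave 10 rises and 1 fall (25.3% and 20.3% of all genes). A common median gave 8 and 4 (16.5% and 28.0% of all genes). The largest were the chemokine Cxcl10 (1.51), the antiviral gene Mx1 (1.42), the ubiquitin-like modifier Isg15 (1.15) and Ifit3 (1.06). Tapbp, which loads peptides onto class I molecules, rose by 1.01 and Tap1 by 0.55, whereas the class I light chain B2m fell by 0.36 as deposited but was at 0.07 after quantile normalization. On day 15 there were 2 rises (Cd74 by 1.07 and Tapbp by 0.58) and 4 falls, beside 38.8% and 20.5% of all genes. The largest falls were Igtp at -1.03 and Cxcl11 at -0.92. On day 4 there were 2 rises and 2 falls, beside 18.3% and 9.19% of all genes. On day 24 only Irf8 was called, at 0.64, a call lost in 2 of 9 fits that left out 1 array (adjusted p up to 0.053).

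In the ATPase ring of the regulatory particle, counts are by the brightest probe set of each gene. Of 6 genes, 0 were called on day 4, 3 rose on day 8 and 2 on day 15, with 0 falls on any day. For Psmc6 the brightest probe set was at -0.20 on day 15 and not called. Its dimmer probe sets were at -0.41 (adjusted p = 0.011) and -0.28 (0.0496) on that day, both called down. Neither dimmer probe set was called on the other days. Psmc1, whose tail helps to open the core's gate, had signals of 398, 398, 426, 346 and 399 in day 8 controls and 461, 485, 457, 463 and 461 at 80 mg/kg. On day 15 they were 410, 362, 356, 451 and 417 against 512, 502, 468, 528 and 466. The treated livers were above the controls on both days. The log2 rise was 0.25 ± 0.07 on day 8 (adjusted p = 0.0021) and 0.31 ± 0.07 on day 15 (8.0e-05). Psmc5 rose by 0.22 ± 0.07 on both days, and Psmc4 by 0.14 ± 0.05 on day 8. Each of these rises was lost with a common median.

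The non-ATPase genes held the subunits of widest change in opposite directions. Of 14, 2 rose and 1 fell on day 4, and 3 rose and 4 fell on day 8. On day 15, 4 rose and 3 fell, and on day 24, 1 rose and 1 fell. The share called was 21.4%, 50%, 50% and 14.3% on the 4 days, beside 27.5%, 50.8%, 59.2% and 10.2% of all genes.

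Psmd13, a structural subunit of the lid, rose on days 4, 8 and 15. Its signals on day 8 were 220, 242, 171, 208 and 209 in controls and 280, 344, 339, 340 and 273 at 80 mg/kg. Those on day 15 were 173, 180, 187, 182 and 176 against 257, 296, 262, 330 and 257. No treated liver overlapped the controls on either day. The log2 rise was 0.29 ± 0.08 on day 4 (adjusted p = 0.0030), 0.59 ± 0.07 on day 8 (2.6e-09) and 0.64 ± 0.07 on day 15 (1.2e-10), with signals 50.2% and 55.4% higher on days 8 and 15. After recovery the signals were 175, 180, 165 and 192 in controls and 190, 181, 190, 165 and 191 at 80 mg/kg. The groups overlapped, with a log2 difference of 0.04 ± 0.08 (adjusted p = 0.77).

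Psmd11, the lid subunit that clamps the cap to the core, fell on the same days. Its day 15 signals were 950, 976, 1039, 1009 and 1034 in controls and 706, 570, 610, 622 and 670 at 80 mg/kg. On day 8 they were 915, 983, 1010, 985 and 908 against 714, 671, 700, 763 and 728. There was no overlap on either day, while on day 4 treated replicate 2, at 965, lay among controls of 949 to 1079. The log2 change was -0.32 ± 0.07 (adjusted p = 0.00023), -0.42 ± 0.06 (1.4e-07) and -0.66 ± 0.06 (4.6e-13) on days 4, 8 and 15, a signal change of -36.7% on the last. On day 24 it was -0.13 ± 0.07 (adjusted p = 0.18). A second probe set of Psmd11 gave log2 changes of -0.17, -0.12, -0.39 and -0.33 on the 4 days, called on days 15 and 24, so both probe sets were called down only on day 15.

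Psmd1, the large scaffold protein of the base, had day 15 signals of 326, 333, 366, 356 and 406 in controls and 272, 248, 260, 294 and 242 at 80 mg/kg. The groups did not overlap. The log2 fall was 0.37 ± 0.07 on day 8 (adjusted p = 2.7e-05) and 0.44 ± 0.07 on day 15 (5.3e-07). Psmd2, the other large base scaffold and a ubiquitin docking subunit, went in the opposite direction, with rises of 0.21 ± 0.05, 0.28 ± 0.05 and 0.22 ± 0.05 on days 4, 8 and 15. Its day 8 signals were 650, 650, 642, 608 and 645 in controls and 801, 717, 736, 883 and 738 at 80 mg/kg, without overlap. The rises of Psmd2 were not called with a common median.

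Psmd9, a chaperone of base assembly, fell on day 8 and was not called on the other days. Its signals were 368, 351, 276, 319 and 244 in controls and 221, 229, 220, 234 and 201 at 80 mg/kg. All treated arrays were below all controls, and the log2 change was -0.48 ± 0.10 (adjusted p = 0.00011). On day 15 it was -0.22 ± 0.10 (adjusted p = 0.069). A dimmer second probe set of Psmd9 changed by -0.96 on day 8 and -1.04 on day 15, called on both. The other base chaperones in the list, Psmd5 and Psmd10, were not called against control on any day.

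Psmd3, a lid subunit, had day 15 signals of 218, 220, 217, 194 and 243 in controls and 216, 184, 157, 154 and 200 at 80 mg/kg. The groups overlapped, and the log2 fall was 0.23 ± 0.09 on day 8 (adjusted p = 0.041) and 0.27 ± 0.09 on day 15 (0.011). The day 8 call was lost without control replicate 1, 3 or 4 or 80 mg/kg replicate 1, 2 or 3 (6 of 10 fits; adjusted p up to 0.13), and the day 15 call without 80 mg/kg replicate 3 (0.051) or replicate 4 (0.058). Psmd6 of the lid rose by 0.22 ± 0.08 on day 8 and 0.29 ± 0.08 on day 15. Its day 8 call ended without 80 mg/kg replicate 1 (adjusted p = 0.055) or replicate 2 (0.077). Psmd4, a ubiquitin receptor, rose by 0.29 ± 0.06 on day 15, when its signals were 304, 285, 314, 339 and 339 in controls and 377, 387, 381, 408 and 370 at 80 mg/kg. The Psmd4 groups did not overlap, yet with a common median neither Psmd4 nor Psmd6 was called.

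After recovery on day 24, Psmd14, the deubiquitinase of the lid, was higher and its partner Psmd7 lower at 80 mg/kg. Psmd14 signals were 399, 383, 363 and 430 in controls and 497, 439, 478, 484 and 517 at 80 mg/kg. Those of Psmd7 were 606, 618, 620 and 613 against 521, 539, 549, 555 and 523. Neither gene's groups overlapped. The log2 changes were 0.30 ± 0.10 (adjusted p = 0.038) and -0.19 ± 0.06 (0.022). The Psmd14 call was lost in 7 of 9 fits that left out 1 array (all but control replicate 5 and 80 mg/kg replicate 2; adjusted p up to 0.11) and a second probe set of that gene gave -0.19, while the Psmd7 call ended without control replicate 3 (0.058). The 3′ to 5′ ratio of the actin control probes, a sign of RNA integrity, had group medians of 6.4 to 6.9 on day 24 and 4.3 to 5.3 before. With that ratio in the fit, an alternative added after seeing the data, Psmd14 was at 0.24 and not called while Psmb5 and Psmd7 were, and no day 24 call kept its sign and threshold under all 3 scalings.

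At 30 mg/kg limma called 0 of 36 subunits against control on each day, where 0.783%, 0.233%, 4.6% and 0.0932% of all genes tested were called on days 4, 8, 15 and 24. At an unadjusted p under 0.05 there were 1, 5, 3 and 2 subunits on those days, against 1484, 1148, 2003 and 1093 of all 10726 genes. Psmb5 on day 4 had the smallest adjusted p among these, with 1022, 1113, 1057, 1003 and 1074 in controls and 1146, 1196, 1344, 1184 and 1071 at 30 mg/kg. Its groups overlapped through replicate 5, and the log2 difference was 0.17 ± 0.05 (adjusted p = 0.095). Psmd13 on day 15 was at 200, 202, 196, 205 and 198, between the controls and the 80 mg/kg livers given above and overlapping neither, with a log2 difference from control of 0.16 ± 0.07 (adjusted p = 0.23). The immunoproteasome genes Psmb8, Psmb9 and Psmb10 differed from control by 0.31, 0.22 and 0.17 on day 8, with adjusted p of 0.51, 0.66 and 0.78. The 30 and 80 mg/kg comparisons share their control arrays.

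Set directly against 30 mg/kg, the 80 mg/kg livers had 6 higher and 2 lower subunits on day 4, where 20.1% of all genes were called (13.2% up and 6.84% down). Day 8 gave 3 higher and 6 lower (all genes 46.1%; 31.5% and 14.6%), day 15 gave 8 and 6 (55.2%; 36.9% and 18.3%), and day 24 gave 1 and 0 (6.77%; 4.54% and 2.23%). Psmd13 was higher by 0.24, 0.47 and 0.48 and Psmd11 lower, at -0.22, -0.32 and -0.55, on days 4, 8 and 15. The second probe set of Psmd11 was at -0.03, -0.09 and -0.28 on those days, called only on day 15. Psmd9 was lower on day 8 (-0.54 ± 0.10) and on day 15 (-0.48 ± 0.10, adjusted p = 9.8e-05), the latter with a 30 mg/kg level 0.26 above control on the log2 scale (adjusted p = 0.13). The calls made under all 3 scalings were Psmd10 (lower) on day 4, Psmd13 (higher) with Psmd1, Psmd3, Psmd9 and Psmd11 (lower) on day 8, and Psmd13 (higher) with Psmc6, Psmd1, Psmd9 and Psmd11 (lower) on day 15. The day 24 call was Psmb9, with 692, 446, 275 and 389 at 30 mg/kg and 617, 872, 660, 500 and 517 at 80 mg/kg. Its groups overlapped, and the log2 difference of 0.54 ± 0.16 (adjusted p = 0.035) fell to 0.33 (0.25) without 30 mg/kg replicate 3 and lost its call in 6 of 9 such fits. The day 4 counts moved most with single livers: 1 higher without 80 mg/kg replicate 5 and 3 higher without 30 mg/kg replicate 2, while Psmd10 lost its call in 5 of 9 fits and Psmd11 and Psmd13 in 4 each. On day 8 the rises numbered 1 without 80 mg/kg replicate 4, 5 without 30 mg/kg replicate 3 and 6 without 80 mg/kg replicate 5.

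The growth of the 80 mg/kg effect during dosing was tested as the difference between days of the change against control. Between days 4 and 8, and between days 8 and 15, limma called 0 subunits (7 and 3 at an unadjusted p under 0.05), where 6.68% and 4.98% of all genes were called. Between days 4 and 15 the effect grew in the positive direction for Psmd13 (0.34 ± 0.11, adjusted p = 0.013) and Psmd4 (0.26 ± 0.09, 0.035) and in the negative direction for Psmd11 (-0.34 ± 0.09, 0.0039), Psmd1 (-0.34 ± 0.10, 0.011) and Psmb3 (-0.22 ± 0.07, 0.018), against 24.4% of all genes (14.3% up and 10.1% down). Psmd11 alone was called under all 3 scalings. Psmd4 lost its call in 7 of 19 fits that left out 1 array.

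The effect on day 24 differed from that on day 15 for 16 subunits, 5 upwards and 11 downwards, against 42.7% of all genes (16.6% and 26.1%). By its brightest probe set Psmd11 returned towards control, with a difference of 0.52 ± 0.09 (adjusted p = 5.1e-06). The second probe set of Psmd11 showed little return, at -0.39 against control on day 15 and -0.33 on day 24, called down on both. Psmd1 (0.27 ± 0.10, 0.028) and Psmd3 (0.33 ± 0.14, 0.045) also returned towards control. Psmd13 came down by 0.59 ± 0.11 (adjusted p = 8.2e-06), Psmb5 by 0.43 ± 0.07 (5.6e-06), Psmc1 by 0.43 ± 0.10 (0.00041) and Psmd4 by 0.40 ± 0.09 (0.00037). Psmc5 and Psmb7 came down by 0.31 and 0.28. The remaining downward differences were those of Psma7, Psmd7, Psmc3, Psmb4 and Psmd2, between -0.21 and -0.25, and the remaining upward ones those of Psmc6 (0.39) and Psmd14 (0.37). The second probe set of Psmd14 moved the other way, from 0.20 against control on day 15 to -0.19 on day 24, neither called. Its dimmest probe set was at 0.01 and 0.27 on those days, also not called. Under all 3 scalings the 11 downward calls and that of Psmd11 were kept. Upward calls were fewer without single livers: Psmd3 lost its call in 13 of 19 fits, Psmd1 in 6, Psmc6 in 4 and Psmd14 in 2, and 7 downward calls were left without control replicate 3 of day 24.

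Among genes that build the proteasome, Psmg2, Psmg3 and Psmg4 rose on days 4, 8 and 15 at 80 mg/kg. Of the 5 measured assembly chaperones, 4 rose and 0 fell on day 4, 3 rose and 1 fell on days 8 and 15, and none was called on day 24. All genes were called up in 18.3%, 34.2%, 38.8% and 7.15% on the 4 days and down in 9.19%, 16.6%, 20.5% and 3.08%. These shares also stand beside the counts of the lists that follow. Psmg4, which with Psmg3 helps to order the alpha ring, was at 346 ± 56 (SD, n = 5) in day 15 controls, 447 ± 58 (n = 5) at 30 mg/kg and 751 ± 55 (n = 5) at 80 mg/kg. The lowest 80 mg/kg liver, at 682, was above the highest control at 433. Its log2 rise was 0.43 ± 0.12, 0.75 ± 0.11 and 1.13 ± 0.11 on days 4, 8 and 15, and 0.37 at 30 mg/kg on day 15 (adjusted p = 0.043). The 30 mg/kg call was lost in 8 of 10 fits that left out 1 array (adjusted p up to 0.15) and under both other scalings. Psmg2, which pairs with Psmg1, rose by 0.47, 0.58 and 0.87 and Psmg3 by 0.40, 0.45 and 0.80, while Psmg1 fell by 0.36 on day 8. With a common median Psmg3 and Psmg4 on day 4 (0.27 and 0.30) and Psmg3 on day 8 (0.22) were no longer called. On day 24 Psmg2, Psmg3 and Psmg4 were at log2 differences of 0.02, -0.04 and 0.05. Pomp, which matures the beta ring, rose by 0.14 on day 4 and fell by 0.12 on day 15, the latter turning to a called 0.16 after quantile normalization. The Pomp calls were lost in 3 of 9 fits without 1 array on day 4 (adjusted p up to 0.094) and in 5 of 10 on day 15 (up to 0.065).

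Of 9 activators, inhibitors and partners of the cap, 2 rose and 1 fell on day 4, 3 rose and 2 fell on days 8 and 15, and 0 rose and 2 fell on day 24. Psmf1, the proteasome inhibitor protein, fell by 0.30, 0.28 and 0.38 on days 4, 8 and 15 under all 3 scalings. The alternative cap Psme4 fell by 0.40 on day 15. Psme2 rose by 0.32 on day 8 and 0.16 on day 15, while its partner Psme1 was not called (-0.02 and -0.15). The day 15 call of Psme2 was lost in 6 of 10 fits without 1 array (adjusted p up to 0.26), and neither rise was called with a common median (0.10 and 0.02). The cap-bound deubiquitinase Usp14 rose by 0.32 on day 8 and fell by 0.27 on day 24, the latter call lost in 4 of 9 fits without 1 array (adjusted p up to 0.080).

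Of 13 measured genes of the Nfe2l1 route and the ubiquitin shuttles, 4 rose and 2 fell on day 4 and 4 and 3 on day 8. On day 15, 6 rose and 4 fell, beside 38.8% and 20.5% of all genes, and on day 24, 1 rose and 0 fell. Nfe2l1 rose by 0.39, 0.36 and 0.61 and Nfe2l2, the oxidative stress factor that shares its binding element, by 0.86, 0.72 and 0.85 on days 4, 8 and 15. With a common median Nfe2l1 was not called on days 4 and 8 (0.26 and 0.14). Ddi2, the protease that activates Nfe2l1, fell by 0.45, 0.38 and 0.47 and rose by 0.38 on day 24, the latter call lost in 5 of 9 fits without 1 array (adjusted p up to 0.084) and with a common median (0.13). The shuttle Ubqln2 fell by 0.30, 0.31 and 0.65. Of 13 targets of Nfe2l2, 8, 10 and 10 rose on days 4, 8 and 15 and 0 fell, with median log2 changes of 0.54, 1.003 and 0.94, and on day 24 none was called (median -0.02). With a common median 7, 9 and 8 rose and 1, 0 and 1 fell on days 4, 8 and 15. Examples on day 15 were Gstp1 (2.98), Abcc4 (2.88), Srxn1 (2.74) and Akr7a3 (2.41), none of which encodes a proteasome protein. Of 6 measured ubiquitin-conjugation enzymes, 0, 2, 2 and 0 rose and 1, 1, 2 and 0 fell on the 4 days. On day 24 a common median, under which 31.3% of all genes were called down, gave falls for 3 of 5 assembly chaperones, 7 of 9 partners of the cap, 8 of 13 genes of the Nfe2l1 route, 4 of 13 targets of Nfe2l2, 3 of 6 conjugation enzymes and 6 of 20 interferon and antigen presentation genes. The genes of these lists were chosen with results of these arrays known, so their directions are a description.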

How the data were processed

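RNA of each liver had been hybridised to 1 array, and the authors' deposited values were linear intensities from MAS5, per the submitters' processing notes; 31099 probe sets on 57 arrays were used. The trimmed mean of each array (2% left off at each end) was 99.99, so the arrays had been scaled to a common level. Probe sets were named through the platform annotation, and 20832 carried a single symbol. Probe sets had to exceed 17.09, the median value of the table, on 4 or more arrays, and the one of highest mean log2 signal stood for each gene, which left 10726 genes. All 36 subunits passed on all arrays, and 7 of them had several probe sets.

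Log2 signals were fitted in 1 model of 12 group means with limma 3.58.1 (R 4.3.3), eBayes with a variance trend and two-sided tests, with Benjamini-Hochberg adjustment across the genes and a call under 0.05. Catalytic pairs used exact permutation tests (scipy 1.17.1), and correlations used 100000 permutations of within-group deviations. The scripts were tested on simulated data. Per comparison, the 5 called members of largest rise and of largest fall, the immunoproteasome genes and their counterparts are named, and up to 4 called genes of each other list. The members and lists were chosen with earlier results of these data known. Promoters came from RefSeq (GRCr8). The number of arrays limits the precision. Alternatives covered scaling, filter, offset, choice of probe set, variance trend, array weights, samples in the fit, the replicate block, threshold and each array left out.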

Additional observations from a re-analysis of the deposited data

Results flagged for a closer look

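Among 228 sets of 1 gene in 1 group, for the 19 subunits given in full, 13 had an array far from the rest of its group by the gap to its nearest neighbour; chance gives about 1 in 20. In the immunoproteasome genes these were Psmb9 at 30 mg/kg on day 8 (replicate 3, 933.57), Psmb9 at 80 mg/kg on day 8 (replicate 4, 1117.64) and Psmb10 at 80 mg/kg on day 8 (replicate 4, 375.99), each the highest of its group. In the core they were Psma3 at 30 mg/kg on day 24 (replicate 3, 282.66) and Psmb7 at 30 mg/kg on day 15 (replicate 3, 671.91), again the highest. In the regulatory particle the highest arrays were Psmc1 at 30 mg/kg on day 8 (replicate 3, 498.62) and at 80 mg/kg on day 8 (replicate 2, 485.26), Psmd11 at 80 mg/kg on day 4 (replicate 2, 965.37), Psmd14 at 80 mg/kg on day 15 (replicate 4, 580.45), Psmd4 at 80 mg/kg on day 24 (replicate 5, 304.25), Psmd7 at 30 mg/kg on day 4 (replicate 3, 593.45) and Psmd7 at 80 mg/kg on day 15 (replicate 5, 618.75). Psmd2 in the day 8 controls had a lowest array apart from the others (replicate 4, 607.64).

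The 80 mg/kg effect differed between days by limma's interaction test, on the log2 scale. From day 4 to day 15 it moved by 0.34 for Psmd13, 0.26 for Psmd4, -0.34 for Psmd11, -0.34 for Psmd1 and -0.22 for Psmb3. From day 15 to day 24 it moved upwards, by the brightest probe sets, by 0.52 for Psmd11, 0.37 for Psmd14, 0.33 for Psmd3 and 0.27 for Psmd1. Over the same interval it moved by -0.59 for Psmd13, -0.43 for Psmb5, -0.43 for Psmc1, -0.40 for Psmd4, -0.28 for Psmb7, -0.25 for Psmd7 and -0.21 for Psmd2.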

How the results depend on the processing

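Array scaling moved the counts most, and the cause was not tested. Against control at 80 mg/kg, quantile normalization gave 13, 16, 16 and 1 subunits up on days 4, 8, 15 and 24 and 0 down on day 24, where 15.7%, 25.3%, 31.0% and 4.3% of all genes were up and 2.91% were down on day 24. A common median gave 0, 1, 1 and 0 up, with 14, 10 and 26 down on days 8, 15 and 24, where 8.79%, 16.5%, 28.9% and 2.49% of all genes were up on the 4 days and 28.0%, 26.0% and 31.3% down on the last 3. Against 30 mg/kg, quantile normalization gave 11, 14 and 16 up and 1 down (day 4), and a common median 0, 1 and 1 up and 15 down (day 8), where all genes were up in 10.4%, 22.1% and 28.8% and in 5.2%, 13.9% and 26.3%. On day 24 these scalings called 2 and 20, beside 5.24% and 28.0% of all genes. For the change of the effect, quantile normalization gave 0 up from day 4 to 15, and a common median 0 up and 1 down there and 1 up from day 15 to 24. Core medians were 0.23 (day 8), 0.18 (day 15) and -0.026 (day 24) after quantile normalization. With a common median they were 0.037, -0.13, -0.079 and -0.34 in the core, -0.048, -0.18, -0.071 and -0.35 in the regulatory genes, and -0.30 in the immunoproteasome genes on day 24.

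Fewer calls at 0.01 follow from the threshold: 5 up and 3 down on day 8 and 0 either way on day 24 against control, 2 up and 0 down (day 4), 1 up (day 8) and 0 (day 24) against 30 mg/kg, 0 up and 1 down from day 4 to 15, and 1 up and 5 down from day 15 to 24. Averaging probe sets gave 2 down on day 4 and 0 up on day 24 against control, 1 down on day 4 against 30 mg/kg and 3 up from day 15 to 24. Second probe sets gave 0 down (day 4), 0 up (day 24) and 1 down (day 4 against 30 mg/kg). Fits on only the groups compared gave 0 down on day 24, 2 up and 0 down (day 4), 1 up (day 8) and 0 (day 24) against 30 mg/kg, and 3 up from day 15 to 24. Array weights gave 6 down on day 24, and 6 up (day 8) and 0 (day 24) against 30 mg/kg. The actin ratio as a covariate, added after seeing the data, gave 0 up on day 24, 0 against 30 mg/kg on day 24 and 0 up from day 4 to 15. A stricter filter gave 5 down from day 4 to 15.

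Signs turned under quantile normalization for Psmb8 minus Psmb5 on day 8 (-0.075), Psmb10 minus Psmb7 on day 24 (-0.066), Pomp (0.16) and Psmb3 (0.027) on day 15. They turned under a common median for Psmc5 (-0.016) and Psmd2 (-0.059) on day 8 against 30 mg/kg, and for Ube2d2 (-0.073) and Uchl5 (-0.031) on day 8. With the second probe set Psmd14 was at -0.19 on day 24 and its change from day 15 at -0.39, and with averaged probe sets Uba6 was at 0.041 and Ube2k at -0.12 on day 15.

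With each array left out in turn, counts ranged from 0 to 1 up and 0 to 3 down on day 24 against control. Against 30 mg/kg they ranged from 1 to 6 up and 0 to 2 down on day 4, 1 to 6 up on day 8 and 0 to 3 called on day 24. For the change of the effect they were 0 to 1 up and 0 to 1 down (days 4 to 8), 0 to 1 down (days 8 to 15), 1 to 2 up and 3 to 5 down (days 4 to 15), and 1 to 5 up and 7 to 11 down (days 15 to 24). Medians on day 4 ranged from 0.12 to 0.18 (core) and 0.035 to 0.11 (regulatory). Psmb8 minus Psmb5 ranged from -0.11 to 0.13 (day 8) and -0.10 to 0.35 (day 24) at 80 mg/kg and -0.059 to 0.39 (day 24) at 30 mg/kg. Psmb10 minus Psmb7 ranged from -0.018 to 0.35 (day 8) and -0.11 to 0.19 (day 24) at 80 mg/kg, and from -0.049 to 0.12 (day 4), -0.049 to 0.13 (day 8) and -0.18 to 0.12 (day 24) at 30 mg/kg.

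The replicate block gave 6 up and 1 down on day 4, 10 and 5 on day 8, 8 and 5 on day 15 and 1 and 2 on day 24 at 80 mg/kg against control. It ended the calls of Psmb7 on day 4 against 30 mg/kg and of Stat2 on day 4 and no other named call. Replicate numbers showed no sign of pairing: deviations of same-numbered arrays had a median correlation of 0.0018 over 298 pairs, 8 of them over 0.1. Arrays of other numbers had -0.0018 over 1190 pairs, 43 of them over 0.1. For same-numbered arrays of the same day it was 0.0046 over 54 pairs, 0 of them over 0.1. Such medians over all genes cannot show that the samples were unpaired.

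Of 134 named single-gene calls, 54 kept their sign but lost the call with a common median, 20 after quantile normalization, 27 with only the groups compared and 12 with the actin ratio, and an added offset kept all 134. All 36 subunits exceeded the signal filter on all 57 arrays; detection calls were not used here.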
